A study of Rattus norvegicus with 24 samples.

Results

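Levels of 10 genes that encode aldehyde-reducing and alcohol-oxidizing enzymes were followed in the lungs of rats that inhaled hexanal. The genes were chosen by name, as the array probes whose accession maps to Akr1a1, Akr1b1, Akr1b8, Akr7a2, Akr7a3, Adh1, Adh4, Adh5, Adh7 and Cbr1. All 10 genes were on the array, with 11 probes in all, and all 10 passed the filter on dim probes, among 21255 genes or unnamed probes tested. Lung RNA came from 24 Fischer 344 (F-344) rats, both sexes, 7 to 8 weeks of age, kept on a nose-only inhalation chamber for 4 h a day on 5 days a week. The control group breathed filtered clean air, and the low-, middle- and high-dose groups breathed hexanal vapor at 600, 1000 and 1500 ppm. Each group held 6 rats, 3 males and 3 females, and each rat was hybridized alone on a one-colour Agilent array. The treatment text of the sample labels gives 5 weeks and the same dose numbers in mg per cubic meter. The group names give ppm, which is used here, and since the methods state another length of exposure, that length is uncertain.

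Aldehydes such as hexanal, a volatile product of lipid peroxidation, can be oxidized to carboxylic acids or reduced to alcohols. Aldo-keto reductases (Akr genes) and carbonyl reductases (Cbr genes) use NADPH to turn aldehydes and ketones into alcohols. Alcohol dehydrogenases (Adh genes) are zinc enzymes that use NAD to oxidize alcohols, and they also run in the reverse direction. Several of these enzymes are made in the airway epithelium, where inhaled aldehydes first meet cells.

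Levels below are log2 signals relative to the 75th percentile of the same array, so 0 is the level of that percentile and a difference of 1 is 2-fold. That percentile lay between 1701 and 3133 signal units over the 24 arrays, 70.7 to 81.7% of probes were well above background, and no probe was saturated. The arrays lay on 6 slides of 4 arrays, each slide held 1 sex, and no slide held a control rat together with a rat of the 1000 or 1500 ppm group. All 8 markers of lung epithelium and endothelium and all 4 markers of club cells were well above background on all 24 arrays. Markers of heart muscle had the widest relative range of the 9 marker lists. The sum of 6 of them had a median of 6.16 times the 75th percentile in controls (2.92 to 35.1). The medians with low, middle and high dose were 16.6 (4.42 to 58.4), 50.7 (7.88 to 122) and 13.1 (3.02 to 124). Of these markers, Nppa was well above background on 5 of 24 arrays and Myh6 on 20. In whole lung RNA, fewer cells of a type and less RNA per cell cannot be told apart.

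The promoters of Akr7a2 and Akr7a3 are shown because these were the only members higher at 1000 ppm at an unadjusted p-value under 0.05, and the genes are neighbors on chromosome 5 with no coding gene between them. Both are the 250 bases before the annotated start in RefSeq (assembly GRCr8), at chr5:156835339-156835588 and chr5:156876471-156876720, plus strand, 5′ to 3′, with matches to the GC box GGGCGG on either strand in capitals.
Akr7a2: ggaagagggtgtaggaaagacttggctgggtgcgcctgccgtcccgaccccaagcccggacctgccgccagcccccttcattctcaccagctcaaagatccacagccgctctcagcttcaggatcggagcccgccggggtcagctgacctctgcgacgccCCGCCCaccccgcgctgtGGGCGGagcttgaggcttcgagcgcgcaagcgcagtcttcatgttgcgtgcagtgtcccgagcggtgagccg
Akr7a3: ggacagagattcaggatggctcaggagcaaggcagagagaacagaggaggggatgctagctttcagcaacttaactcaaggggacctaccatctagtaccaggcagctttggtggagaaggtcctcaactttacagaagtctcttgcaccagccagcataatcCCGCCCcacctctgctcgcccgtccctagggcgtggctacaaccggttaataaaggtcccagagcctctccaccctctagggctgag
The Akr7a2 window was 67.6% G and C with 2 GC box matches, and the Akr7a3 window 55.6% with 1 match, against a median of 51.2% over all promoters. Of the 9 members with a promoter in the table, 5 held a GC box, as did 30.5% of all 33469 promoters. The core of the antioxidant response element, TGACNNNGC, was found on neither strand in any of the 9 windows, and in 10.1% of all promoters. Adh4 alone held TATAAA (on the minus strand), as did 12.9% of all promoters. No match in these windows overlapped another, and a match is a match of letters only.

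None of the 10 genes passed a fold change of at least 1.5 together with an unadjusted limma p-value under 0.05 at any dose. The count was 0 of 10 for the low dose (0.616% of all features passed), 0 of 10 for the middle dose (1.64%) and 0 of 10 for the high dose (1.22%). By the unadjusted p-value alone, 1, 2 and 1 of 10 genes were under 0.05 at the 3 doses, where 4.33%, 8.99% and 6.97% of all features did. They were Akr7a2 at 600 ppm, Akr7a2 and Akr7a3 at 1000 ppm, and Adh5 at 1500 ppm, each of them higher than in the control group. The smallest adjusted p-value among the members was 0.997, 0.495 and 0.674 at the 3 doses (limma, Benjamini-Hochberg over all features), so none passed after adjustment; over all features 0, 4 and 1 passed. The low dose had 4 members higher and 6 lower than control, with a median difference of -0.02. The middle dose had 8 higher and 2 lower (median 0.10), and the high dose 7 higher and 3 lower (median 0.05). The 3 comparisons share their control rats. The median over all features was -0.0013, 0.0047 and 0.013. With the slide as a fixed block, 2, 4 and 3 of the 10 members were higher than control at the 3 doses, so the direction of most members was not settled. In that fit the 1000 and 1500 ppm groups are tied to the controls only through 1 rat of the 600 ppm group on each control slide.

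**Figure D1:**
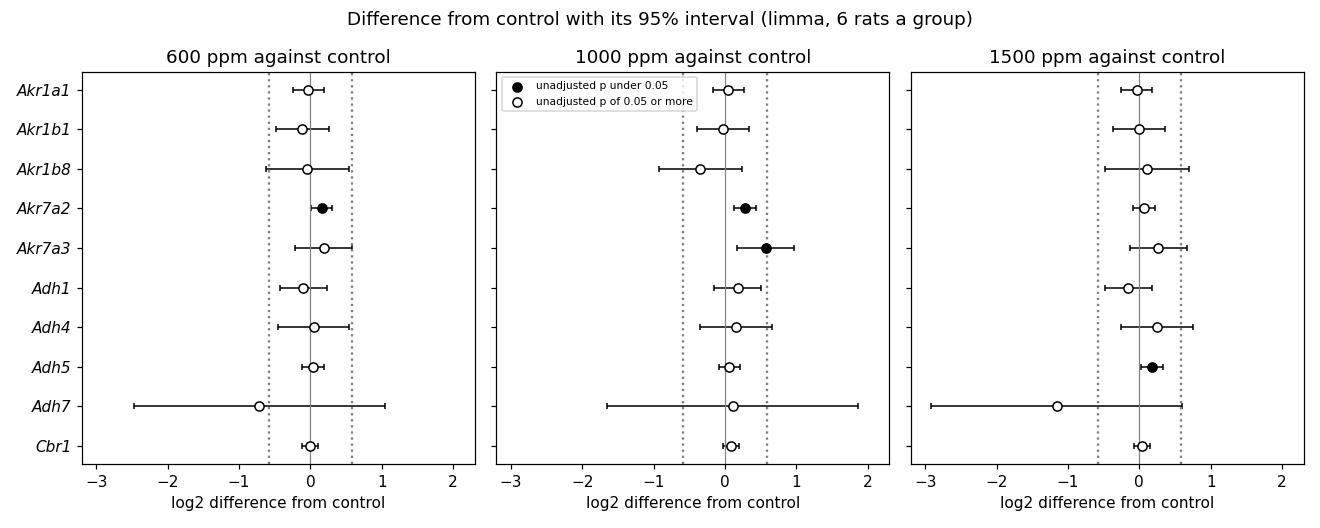
Log2 difference from control of each of the 10 genes at 600, 1000 and 1500 ppm, as points with 95% intervals from limma on 24 arrays (6 rats a group); dotted lines mark 1.5-fold in either direction, and filled points have an unadjusted p-value under 0.05. The filled points are Akr7a2 at 600 ppm, Akr7a2 and Akr7a3 at 1000 ppm and Adh5 at 1500 ppm, and the interval of Adh7 is the widest at each dose.

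The precision differed widely between members, as the plot of differences shows. The 95% interval of the difference stayed within 1.5-fold in both directions for 8 of 10 members at 600 ppm, 6 at 1000 ppm and 6 at 1500 ppm. It did so for 4, 5 and 3 members with the slide as a fixed block, and for 7, 7 and 4 with the slide as a random block. Cbr1 varied least between rats of a group, with a within-group SD of 0.077, smaller than that of all but 2.15% of features. Adh7 varied most, with a within-group SD of 1.55, larger than that of 99.7% of features. The median over all features was 0.23.

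**Figure D2:**
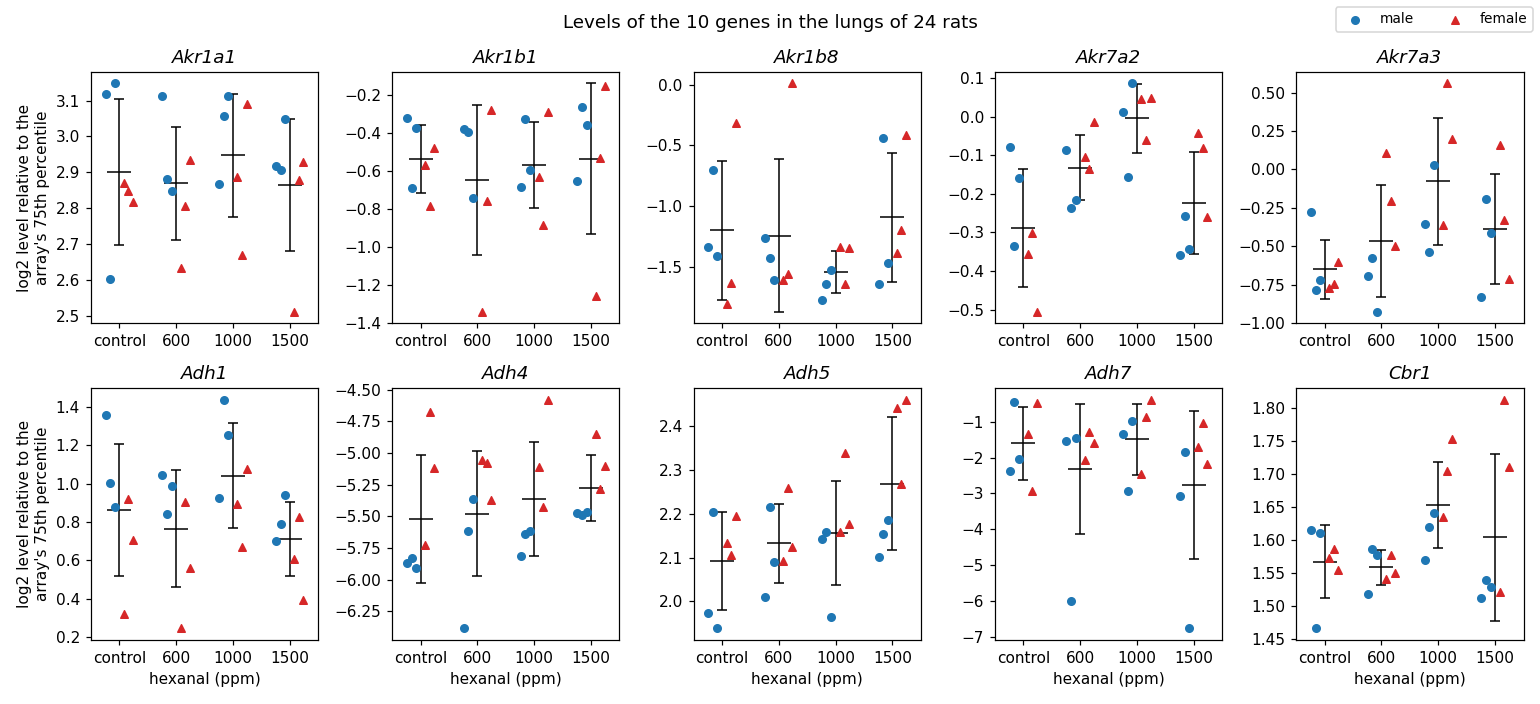
Log2 level relative to the array's 75th percentile of the 10 genes in each of 24 rats, by dose group; circles are males, triangles females, and black bars give the mean and SD of 6 rats. Akr7a2 at 1000 ppm has 5 of 6 rats above every control rat. In all 4 groups the female mean is higher for Adh4, Adh5 and Adh7 and lower for Adh1, Akr1a1 and Akr1b1.

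Akr7a2 (NM_134407) reduces succinic semialdehyde and other small aldehydes. In the control group its level ran from -0.51 to -0.08 with a median of -0.32. It ran from -0.24 to -0.01 at 600 ppm (median -0.12), from -0.16 to 0.09 at 1000 ppm (median 0.03) and from -0.36 to -0.04 at 1500 ppm (median -0.26). At 1000 ppm, 5 of 6 rats lay above all control rats, whereas in each of the other exposed groups 1 rat did. The difference from control at 1000 ppm was 0.29 ± 0.07 (SE, n = 6 and 6), a rise of 21.8% with a 95% interval of 0.13 to 0.44 (limma p = 0.00076, adjusted p = 0.495, and an exact two-sided permutation p of 0.00433). By its unadjusted p-value Akr7a2 ranked 30 of 21255 features at 1000 ppm. The difference was 0.16 ± 0.07 with the low dose (limma p = 0.0434, adjusted p = 0.997, exact p = 0.0519), and with a normexp background correction it was 0.08 and no longer under 0.05 unadjusted. With the high dose it was 0.06 ± 0.07 (exact p = 0.439), and 0.01 with the slide as a fixed block. The level at 1500 ppm was lower than at 1000 ppm by -0.22 ± 0.07 (limma p = 0.00639, adjusted p = 0.886, exact p = 0.013).

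Akr7a3 (NM_013215) encodes aflatoxin aldehyde reductase, which turns the dialdehyde of that mold toxin into alcohols. Its level ran from -0.78 to -0.28 in the control group (median -0.73), from -0.93 to 0.10 at 600 ppm (median -0.54), from -0.54 to 0.56 at 1000 ppm (median -0.16) and from -0.83 to 0.16 at 1500 ppm (median -0.37). All 6 rats of the 1000 ppm group lay above the mean of the controls and 3 of them above every control. The difference at 1000 ppm was 0.57 ± 0.19, or 1.49-fold, just short of the 1.5-fold threshold, with a 95% interval of 0.18 to 0.97 (limma p = 0.00668, adjusted p = 0.515, exact p = 0.013). It was 0.19 ± 0.19 with the low dose (exact p = 0.303) and 0.26 ± 0.19 with the high dose (exact p = 0.152); the first was 0.36 with the slide as a fixed block. Leaving out the highest control, rat 1, brought the difference at 1000 ppm to 0.65, and leaving out rat 11, 12 or 31 of the 1000 ppm group brought it to between 0.63 and 0.66. Each of these 4 changes carried Akr7a3 past 1.5-fold, as did the slide as a random block (0.65, limma, adjusted p = 0.705) or as a fixed block (0.74, limma, adjusted p = 0.999). The fixed-block value depends on rats 6 and 26 of the 600 ppm group, the only exposed rats on slides with controls.

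On the slides that hold 2 rats of the 600 ppm and 2 of the 1000 ppm group, the 1000 ppm rats had more Akr7a2, by 0.16 for males and 0.07 for females, and Akr7a3 by 0.31 and 0.45. On the slides with 1 rat of the 1000 ppm and 3 of the 1500 ppm group, the difference of the higher minus the lower dose was -0.41 for males and -0.18 for females in Akr7a2, and -0.50 and -0.49 in Akr7a3. A slide with control rats held only 1 exposed rat, at 600 ppm. There the Akr7a2 level of the exposed rat exceeded the mean of the controls by 0.11 in males and 0.28 in females, and the difference of Akr7a3 was -0.10 and 0.81.

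The heart muscle markers moved with Akr7a2. Over the 24 rats, the level of Akr7a2 had a Pearson r of 0.77 (Spearman rho 0.79) with the log2 sum of the 6 heart markers, and 0.74 after the group means were removed; for Akr7a3 these were 0.30, 0.42 and 0.094. With the log2 heart sum as a covariate, the difference at 1000 ppm was 0.18 for Akr7a2 and 0.53 for Akr7a3, both at an unadjusted limma p-value under 0.05 (adjusted p = 0.727 for each). That of Akr7a2 with the low dose was 0.11 and no longer under 0.05 unadjusted (limma, adjusted p = 0.885). Akr7a2 and Akr7a3 also had r of 0.57 and 0.57 with the sum of club cell markers and 0.65 and 0.54 with that of ciliated cell markers. After the group means were removed, these were 0.53 and 0.51 for club cells and 0.56 and 0.40 for ciliated cells. The medians of the club and ciliated cell sums were 179 and 4.33 in the control group and 202 and 6.90 at 1000 ppm. The ciliated sum rests on 2 of 5 listed genes. With the sum of basal and squamous markers the r values were -0.60 and -0.16 (-0.58 and 0.047 after the group means were removed). That sum is mostly Trp63, with a median log2 level of 3.13 against -6.66 to -1.56 for the keratins. With the sum of red blood cell markers the r values were -0.38 and -0.08 (-0.58 and -0.045 after the group means were removed). The rats share arrays and slides, so these correlations describe the 24 arrays, and the part of these cell types in the differences was otherwise not tested. The rat with the highest Akr7a3 level of the 600 ppm group, rat 26, also had the highest sum of 5 liver markers on any array (7.58, against 0.31 to 2.19 in the controls). Rats 32 and 36, the highest in Akr7a3 at 1000 and 1500 ppm, had liver sums of 0.69 and 0.58. Over the 24 rats the r of Akr7a3 with the liver sum was 0.24 (Spearman rho 0.20).

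**Figure D3:**
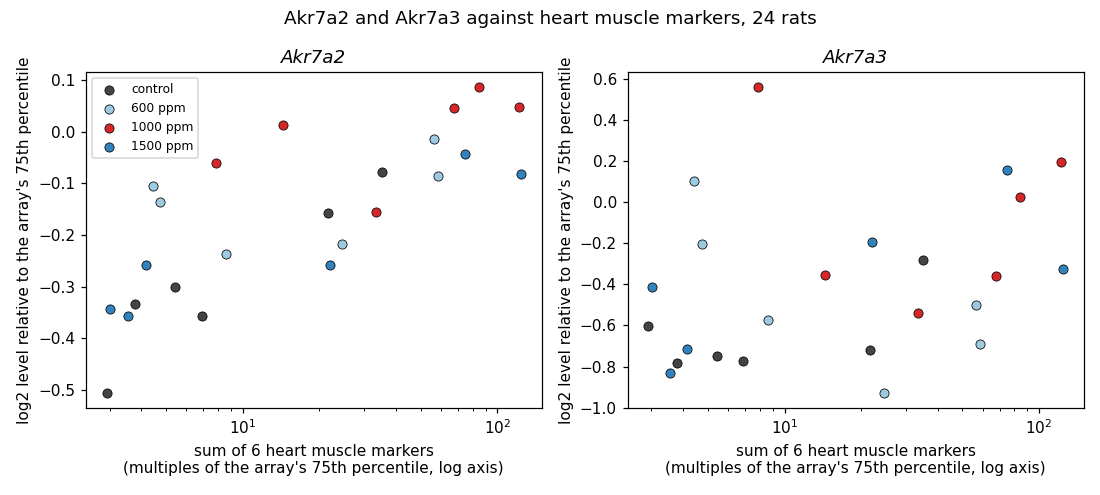
Log2 level of Akr7a2 (left) and Akr7a3 (right) relative to the array's 75th percentile against the sum of 6 heart muscle markers in multiples of that percentile on a log axis, 1 point a rat, colored by group. Akr7a2 rises with the heart sum over the 24 rats (r = 0.77), and Akr7a3 less so (r = 0.30).

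Akr1a1 (NM_031000), the general aldehyde reductase that also serves vitamin C synthesis in rodents, had differences from control whose 95% intervals lay within 1.5-fold at all 3 doses, save at the high dose with the slide as a fixed block (-0.26, interval -0.74 to 0.22). It ran from 2.60 to 3.15 in controls, 2.63 to 3.11 at 600 ppm, 2.67 to 3.11 at 1000 ppm and 2.51 to 3.05 at 1500 ppm, with medians of 2.86, 2.87, 2.97 and 2.91. The differences from control were -0.03, 0.05 and -0.04, each with an SE of 0.10. Akr1b1 (NM_012498), aldose reductase, which reduces glucose and lipid aldehydes, ran from -0.78 to -0.32 in the control group (median -0.52) and from -1.34 to -0.15 over the exposed rats, and its differences were -0.11, -0.03 and 0.00054 with an SE of 0.18. They were -0.32, -0.41 and -0.51 with the slide as a fixed block, with SEs of 0.25 to 0.41. In rats of the same dose group, Akr1a1 and Akr1b1 went up and down together (r = 0.78 over 24 rats, dose-group means removed). That was the highest r among the 45 pairs of members, and the lowest was that of Akr1a1 with Adh5 (-0.67). Sex and slide were not removed from these r values. In all 4 groups the female mean was lower for Akr1a1 and Akr1b1 and higher for Adh5. With group means removed, Akr1a1 and Akr1b1 also had r of -0.64 and -0.60 with the sum of lung epithelium and endothelium markers, and Cbr1 had -0.59. Their r values were -0.78 and -0.43 for Akr1a1 and Akr1b1 with the basal and squamous sum. With the club cell sum they were -0.43 and -0.51, and with the fibroblast sum 0.51 and 0.29. The part of these cell types, or of sex, in the shared movement was not tested.

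Akr1b8 (NM_173136), a rodent relative of aldose reductase that reduces lipid aldehydes, is the neighbor of Akr1b1 on chromosome 4. Its level ran from -1.80 to -0.31 in the control group (median -1.37), from -1.61 to 0.01 at 600 ppm (median -1.49), from -1.77 to -1.33 at 1000 ppm (median -1.58) and from -1.64 to -0.41 at 1500 ppm (median -1.29). In the control, 600 and 1500 ppm groups 1 or 2 rats lay far above the rest, and in the 1000 ppm group none did. All 6 rats at 1000 ppm lay below the mean of the controls, and the difference was -0.34 ± 0.28 (exact p = 0.238). It was -0.04 at 600 ppm and 0.11 at 1500 ppm with the same SE. Single rats decided these values. Without rat 28 the low-dose difference was -0.29, without control rat 23 it was 0.13, and the high-dose difference ran from -0.03 without rat 38 to 0.28 without control rat 23. With the slide as a fixed block the 3 differences were -0.24, -0.69 and -0.34. The 95% interval at 1000 ppm, -0.93 to 0.24, does not exclude 1.5-fold.

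Cbr1 (NM_019170), carbonyl reductase, acts on quinones, prostaglandins and lipid aldehydes. It ran from 1.47 to 1.61 in controls, 1.52 to 1.59 at 600 ppm, 1.57 to 1.75 at 1000 ppm and 1.51 to 1.81 at 1500 ppm, with medians of 1.58, 1.56, 1.64 and 1.53. At 1000 ppm 5 of 6 rats lay above all controls, with a difference of 0.09 ± 0.05, or 6.18% (limma p = 0.125, exact p = 0.0216). The exact test of this small shift passed 0.05 and limma, which draws the spread toward that of other features, did not. The differences at 600 and 1500 ppm were -0.0089 and 0.04. A fixed slide block gave -0.04, 0.02 and -0.07 at the 3 doses.

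Adh5 (NM_001126120), the class III enzyme that oxidizes the glutathione adduct of formaldehyde, ran from 1.94 to 2.20 in the control group (median 2.12), 2.01 to 2.26 at 600 ppm (median 2.11), 1.96 to 2.34 at 1000 ppm (median 2.16) and 2.10 to 2.46 at 1500 ppm (median 2.23). At 1500 ppm 3 of 6 rats lay above all controls, and all 6 above their mean. The difference at 1500 ppm was 0.18 ± 0.07, or 13% higher, with a 95% interval of 0.02 to 0.33 (limma p = 0.026, adjusted p = 0.674, exact p = 0.0541). It was the only member whose level had a slope on dose at an unadjusted p-value under 0.05, at 0.11 ± 0.05 per 1000 ppm (limma, adjusted p = 0.535), where 8.49% of all features did. The slope was 0.11 with the slide as a fixed or a random block too, but then not under 0.05 (limma p-values of 0.262 and 0.0519). The high-dose difference stayed under an unadjusted p-value of 0.05 with the slide as a random block (0.18) and not with the slide as a fixed block (0.19). Array weights brought it to 0.09, and it then no longer passed.

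Adh1 (NM_019286), the classical class I enzyme of ethanol oxidation, named Adh1c in the present gene table, ran from 0.32 to 1.36 in the control group (median 0.90), 0.25 to 1.05 at 600 ppm (median 0.87), 0.67 to 1.44 at 1000 ppm (median 1.00) and 0.39 to 0.94 at 1500 ppm (median 0.75). Its differences from control were -0.10, 0.18 and -0.15 with an SE of 0.16 (exact p of 0.602, 0.348 and 0.357). They were -0.22, -0.06 and -0.52 with the slide as a fixed block, with SEs of 0.18 to 0.29. The level at 1500 ppm was lower than at 1000 ppm by -0.33 ± 0.16 (limma p = 0.049, adjusted p = 0.899, exact p = 0.0368).

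Adh4 (NM_017270) encodes the class II enzyme, best known from liver. Its brighter probe was dim, with signals of 36.1 to 131, yet well above background on all 24 arrays. The level ran from -5.91 to -4.68 in the control group (median -5.78), -6.39 to -5.06 at 600 ppm (median -5.37), -5.81 to -4.58 at 1000 ppm (median -5.52) and -5.49 to -4.85 at 1500 ppm (median -5.38). The groups overlapped throughout, and the differences from control were 0.04, 0.16 and 0.24 with an SE of 0.24 (exact p of 0.877, 0.554 and 0.303). With a normexp background correction their direction turned, to -0.26, -0.44 and -0.10, and with the slide as a fixed block to -0.20, -0.34 and -0.52. The other probe of Adh4 was well above background on 1 of 24 arrays and was not used.

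Adh7 (NM_134329), the class IV enzyme of the upper digestive and airway epithelium, which oxidizes retinol and long-chain alcohols, ran from -2.93 to -0.47 in the control group (median -1.69), -5.99 to -1.28 at 600 ppm (median -1.56), -2.92 to -0.40 at 1000 ppm (median -1.16) and -6.75 to -1.04 at 1500 ppm (median -2.01). A male rat at 600 ppm (rat 7, not well above background) and a male rat at 1500 ppm (rat 18) held the lowest levels, far below all others of their groups. The differences from control were -0.71, 0.11 and -1.16, each with an SE of 0.85 (exact p of 0.504, 0.844 and 0.260), and the intervals reached beyond 2-fold at each dose. Without rats 7 and 18 the differences were 0.02, 0.11 and -0.36. A fixed slide block on all rats gave -0.19, 0.49 and -1.59.

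Over the 24 rats, the named genes most like Adh7 were Kcnip2 (r = 0.70 over 23 rats with a value) and Inmt (r = 0.68). Without rats 18 and 7, the r of Kcnip2 was 0.36 and that of Inmt 0.62. For Akr7a3 they were Unc5cl (r = 0.87) and Atp2a3 (r = 0.83), which were 0.86 and 0.77 without rats 32 and 33, the farthest from the median. For Akr1b8, added after its uneven levels were seen, they were Doc2a (r = 0.67) and Thbs1 (r = 0.64), which were 0.39 and 0.58 without rats 28 and 23. These are descriptions over arrays that share slides, with the highest r chosen among all named genes.

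Females and males differed in 3 of the 10 genes at an adjusted p-value under 0.05 (26.5% of all features did), when the difference was averaged over the 4 groups. Adh4 was higher in females by 0.59 ± 0.13, or 50.6%, with means of -5.11 and -5.71 in 12 females and 12 males (limma, adjusted p = 0.00263). Of 12 females, 9 lay above all 12 males, and the female mean was higher in all 4 groups. Adh1 was lower in females by -0.34 ± 0.09 (means 0.68 and 1.01, limma, adjusted p = 0.0133), with 6 of 12 females below all males and the female mean lower in all 4 groups. Adh5 was higher in females by 0.13 ± 0.04 (means 2.23 and 2.10, limma, adjusted p = 0.0297), with 5 of 12 females above all males. The female mean was also higher in all 4 groups for Adh5 and Adh7, and lower in all 4 for Akr1a1 and Akr1b1. Of these, only Adh5 passed after adjustment. Adh4 and Adh5 are neighbors on chromosome 2, and Adh1 lies in the same cluster.

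Because each slide held 1 sex, slide and sex cannot be fully told apart. With the slide as a random block, 1 of 10 members, Adh4, kept an adjusted p-value under 0.05 (0.0134), where 14.8% of all features did, and the values of Adh1 and Adh5 were 0.0519 and 0.0868. For the other 7 members the adjusted p-value of the main fit lay between 0.133 and 0.645. With a normexp background correction the difference of the dim gene Adh4 was 0.50 (adjusted p = 0.181).

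**Figure D4:**
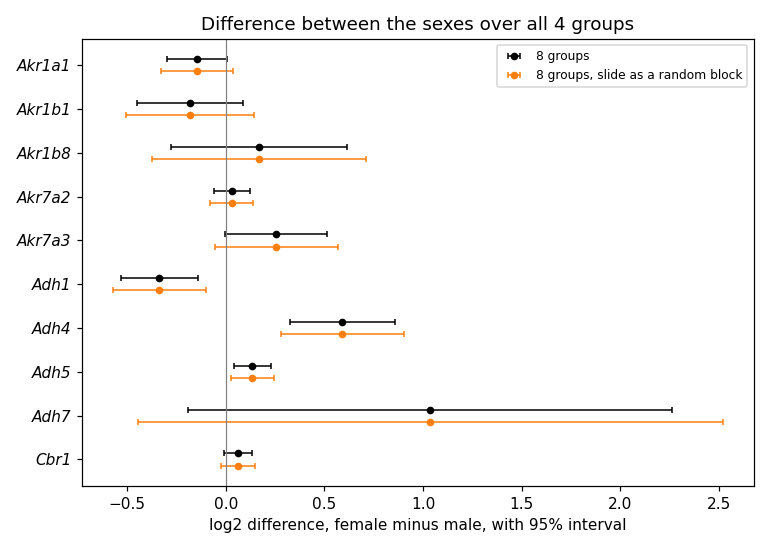
Log2 difference of females minus males averaged over the 4 dose groups for the 10 genes, with 95% intervals, from limma on 8 groups (black) and with the slide as a random block (orange). Adh4 and Adh5 are higher and Adh1 is lower in females, and the interval of Adh7 is the widest.

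The dose effect differed between females and males in none of the 10 genes at an adjusted p-value under 0.05, at any dose; by the unadjusted p-value 1 gene was under 0.05 with the low dose (4.99% of all features), 0 with the middle dose (9.41%) and 1 with the high dose (20.2%). With the slide as a random block none of the 10 passed after adjustment. At 1500 ppm 5.02% of all features passed after adjustment, and 0 features did at 600 and 1000 ppm. The gene with an unadjusted p-value under 0.05 was Akr7a2. Its high-dose difference from control was 0.26 for females and -0.13 for males, 0.39 ± 0.12 apart (limma, adjusted p = 0.074). With the low dose it was 0.30 for females and 0.01 for males, 0.29 ± 0.12 apart (limma, adjusted p = 0.953). With the middle dose the female and male differences were 0.40 and 0.17 in Akr7a2, and 0.84 and 0.31 in Akr7a3. The high-dose rats and the controls of each sex lay on different slides. The part of heart muscle RNA in these differences between the sexes was not tested.

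Of 38 other genes of aldehyde, ketone and alcohol reduction, 37 were on the array and 27 passed the filter. Of the 27, 1 was called with the low dose and 0 with the middle and high doses (0.616%, 1.64% and 1.22% of all features). It was Akr1c12, of the hydroxysteroid dehydrogenase branch of the aldo-keto reductases, with a difference of -0.87 ± 0.32 (limma, adjusted p = 0.997), from a mean of -5.41 ± 0.32 to -6.28 ± 0.64 (SD, n = 6), and it was well above background in 3 of 6 rats at 600 ppm. The medians of the list were -0.01, 0.02 and -0.03 with the low, middle and high dose. By the unadjusted p-value alone, 1 of the 27 was higher and 3 lower with the low dose. With the middle dose 1 was higher and 0 lower, and with the high dose 0 were higher and 2 lower. Over all features, 4.33%, 8.99% and 6.97% passed that p-value in either direction. The genes in these counts are named after their values were seen. With the low dose they were Esd (0.19), Akr1c13 (-0.45), Dhrs1 (-0.22) and Akr1c12 itself, and with the high dose Akr1c19 (-0.21) and Dhrs3 (-0.25), which reduces retinal. The gene of the middle dose was Dcxr, which reduces dicarbonyls and xylulose, at 0.34 ± 0.08 (limma, adjusted p = 0.495). Of 10 target genes of Nrf2, the factor that induces several aldo-keto reductases under oxidative stress, all were tested and 0 were called at each dose, with medians of 0.05, 0.08 and 0.06. At an unadjusted p-value under 0.05, 0, 1 and 1 of them were higher and 0 lower, beside the same 4.33%, 8.99% and 6.97% of all features. These, also named after their values were seen, were Osgin1 at 1000 ppm (0.50 ± 0.19) and Gclm, a subunit of the enzyme that starts glutathione synthesis, at 1500 ppm (0.53 ± 0.23, with 5 control values).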

How the data were processed

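Lung RNA of 24 rats was measured, 1 array a rat. The deposited intensities are signals that the authors extracted with Agilent Feature Extraction 11.5.1.1, background-subtracted and not scaled between arrays; the deposited series table holds the same intensities (equal to within a relative 0.001 for at least 99.7% of probes). The members and gene lists were chosen with earlier results of these data known. Control spots and outlier spots were left out and the spots of a probe averaged (30367 probes, 60.4% matched by accession to 15443 symbols of assembly GRCr8, used for names only). A probe was kept if 1 group or more had it well above background on 5 or 6 of its 6 arrays (23616 probes), and a gene was read from its brightest probe. Signals were set to log2 relative to the array's 75th percentile. Each dose was compared with control by limma 3.58.1 in R 4.3.3, with 1 spread over 24 arrays; the slope on dose, the sex difference and its interaction with dose (8 groups) were fitted likewise. Single values had an exact permutation test of 6 rats against 6 (smallest possible p 0.00216). The replicates are separate rats. Calls followed the study's thresholds of 1.5-fold and an unadjusted p-value under 0.05, with the limma p-value in place of the study's unpaired t-test. The steps were tested on simulated data. Of the other pathway genes, those called were named; for the 2 members with the largest difference, the 2 named genes with the highest r were given. Adh1c was listed as another pathway gene and counted as the member Adh1. Alternatives were other background corrections, scalings, filters, tests, slide blocks, array weights and leaving out each rat; the heart covariate and the fit without rats 7 and 18 were added after seeing the data. The number of arrays limits the precision. Signal of a close relative on a probe was not tested.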

Additional observations from a re-analysis of the deposited data

Results flagged for a closer look

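In groups of 6 rats, a rat was called far from the others when its gap to the nearest, as a share of the group's range, exceeded Dixon's 95% critical value. This held in 5 of 40 groups of the 10 genes, and chance flags about 1 group in 20. The ratio was 0.680 for rat 36, a female at 1500 ppm with the lowest Akr1a1 level of her group (2.51). Her array had the lowest 75th percentile of all arrays (1701). The ratio was 0.788 for rat 28, a female with the highest Akr1b8 level at 600 ppm (0.01). It was 0.640 for rat 1, a male with the highest Akr7a3 level of the controls (-0.28). For Adh7 it was 0.834 for rat 7, a male at 600 ppm (-5.99), and 0.646 for rat 18, a male at 1500 ppm (-6.75), both the lowest of their groups. The second probe of Adh4, left out of the comparisons, was well above background in 1 rat, rat 6 at 600 ppm, at a log2 level of -5.89, and in no control rat.

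The dose effect on Akr7a2 differed between females and males by 0.29 at 600 ppm and 0.39 at 1500 ppm at unadjusted limma p-values of 0.0287 and 0.0053; neither passed after adjustment over all features (0.953 and 0.074). At 1500 ppm all 3 males lay below the mean of the male controls and all 3 females above the mean of the female controls. The heart marker sums of these 1500 ppm rats were 74.6, 124 and 4.15 for females and 3.56, 22.1 and 3.02 for males. In control rats they were 6.90, 5.43 and 2.92 for females and 35.1, 3.77 and 21.6 for males. These groups lay on different slides, so slide cannot be told apart from the difference. The part of heart muscle RNA in it was not tested.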

How the results depend on the processing

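No paired analysis was possible because the groups share no rat numbers. Across 14 alternatives and 24 fits that leave out 1 rat, Akr7a2 and Akr7a3 at 1000 ppm kept their direction and an unadjusted p-value under 0.05, with differences of 0.18 to 0.39 and 0.45 to 0.74. Members called at 1000 ppm numbered 1 instead of 0 with the value table without scaling, the slide as a fixed block and the slide as a random block, and 0 to 1 without single rats; at 600 and 1500 ppm the count was 0 throughout. Members with an unadjusted p-value under 0.05 at 600 ppm numbered 0 instead of 1 under normexp, the value table without scaling, fits on control and 1 dose, the heart covariate and the methods' t-test (0 to 1 without single rats). At 1000 ppm they numbered 4 instead of 2 under normexp, with Akr1b8 at -0.53 and Adh5 at 0.17 added (2 without single rats). The methods' t-test added Cbr1 at that dose. At 1500 ppm they numbered 0 instead of 1 under the value table without scaling, fits on control and 1 dose, the slide as a fixed block and array weights (0 to 1 without single rats). Other pathway genes called at 600 ppm numbered 0 under normexp and under the filter on all 24 arrays, and 2 with the slide as a fixed block (1 to 2 without single rats). At 1000 ppm they numbered 1 with no filter and with the heart covariate (0 to 1 without single rats). At 1500 ppm they numbered 1 with scaling to the array median, quantile normalization, the value table, no filter, sex as a covariate, array weights and the heart covariate (0 to 2 without single rats). Members with a slope on dose numbered 0 with the slide as a fixed or a random block, and 0 to 2 without single rats. Members that differ between sexes numbered 1 under normexp and 1 with the slide as a random block, and 2 to 4 without single rats. Members whose dose effect differs between sexes numbered 0 to 1 at 1500 ppm and 0 at the other doses without single rats. The cause of these changes was not tested. The 4 differences with an unadjusted p-value under 0.05 never changed sign; of the other 26, 20 changed sign under some alternative and 14 without some rat. The dim signals of Adh4 and the spread of Adh7 limit what can be seen of them.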
